A study of Mus musculus with 36 samples.

Results

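Glucokinase (GK) was overexpressed in primary mouse hepatocytes that also carried an adenovirus for human GKRP-446P, abbreviated hP, and the transcriptome was compared with that of hepatocytes that carried the hP vector alone. The comparison rests on 6 of the 36 libraries of the series, chosen by their labels: 3 with the hP vector and endogenous GK (HP) and 3 with the hP vector and a GK vector (GHP). Each mouse gave 1 HP and 1 GHP culture, and the comparison was paired by mouse. The 12 libraries without a GKRP vector, untreated (UN, 6 cultures) or with the GK vector alone (GK, 6 cultures), came from the same mice and served to set the GK effect with hP beside the GK effect without it.

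The hepatocytes came from 3 female GCKR-P446L-EMI-B6N mice of 14 weeks. Mice 1 and 2 are labelled Gckr-446L and mouse 3 Gckr-446P/L, and the series describes the cells of all as GKRP-deficient. The hP vector was added at 10000000 pfu/ml and the GK vector at a titre set empirically to raise GK a few-fold. In all groups the cells were cultured for 24 h in medium with 5 mM glucose, 10 nM insulin and 10 nM dexamethasone and were then kept for 4 h at 25 mM glucose, so the GK effect was measured at high glucose in every case. No control vector that would equalise the virus load between HP and GHP is named in the sources used here, so the GK protein and the added virus cannot be told apart in this comparison.

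GK phosphorylates glucose in the first step of hepatic glucose metabolism. GKRP binds GK, competes with glucose and holds GK in the nucleus, from which it is released at high glucose or by fructose 1-phosphate. Metabolites downstream of GK activate the transcription factor ChREBP (gene Mlxipl), which with its partner Mlx binds carbohydrate response elements and raises genes of glycolysis, fructose metabolism, glucose 6-phosphate hydrolysis and lipogenesis. The carbohydrate response element consists of a pair of E-box-like half-sites set 5 bases apart, and it is printed here because the genes with the largest GK effects include known ChREBP targets. Among 16 genes searched (Txnip and 15 of the 17 genes described later), 12 had an entry among RefSeq promoters of GRCm38.p6, and 2 of these held the motif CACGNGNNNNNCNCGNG on either strand in the 250 bases before the start. The motif occurred in 0.28% of all 32851 promoters of that length. Both are shown with the match in capitals, from 5′ to 3′, on the plus strand.
Pklr, chr3:89136373-89136622: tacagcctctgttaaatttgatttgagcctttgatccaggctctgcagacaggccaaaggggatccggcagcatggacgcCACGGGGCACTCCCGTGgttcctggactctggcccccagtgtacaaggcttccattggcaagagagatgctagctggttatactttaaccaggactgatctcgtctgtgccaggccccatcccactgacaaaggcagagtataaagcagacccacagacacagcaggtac
Txnip, chr3:96557707-96557956: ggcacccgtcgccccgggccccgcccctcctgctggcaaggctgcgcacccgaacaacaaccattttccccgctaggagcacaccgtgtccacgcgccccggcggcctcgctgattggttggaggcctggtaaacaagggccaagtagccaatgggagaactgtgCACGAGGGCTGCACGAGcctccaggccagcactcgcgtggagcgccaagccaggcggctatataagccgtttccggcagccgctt
The match lies at bases -170 to -154 of Pklr, which encodes liver pyruvate kinase, and at -85 to -69 of Txnip, which encodes the arrestin-fold protein TXNIP. A match is a stretch of letters and was not tested for binding.

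Library depth was 5982909 to 7312150 reads in HP and 5524077 to 7230927 in GHP. The transcript reads estimated by the authors were summed to genes, and levels are given in CPM, counts set to a common library size with TMM factors. CPM is not corrected for gene length, so levels are compared within a gene. Hepatocyte markers (Alb, Ttr, Apoa1, Hnf4a, Cps1, Asgr1) summed to 71377 to 114460 CPM in HP and 73194 to 109350 CPM in GHP. The 12 macrophage markers, all detected, summed to 288.5 to 314.4 CPM in HP and 287.1 to 365.5 in GHP, and the 10 endothelial markers to 107.1 to 154.5 and 104.7 to 156.0 CPM. Within mice, GHP was above HP in 1 of 3 mice for the hepatocyte and macrophage sums and in 2 of 3 for the endothelial sum. The sum of 10 stellate and fibroblast markers was higher in GHP in 3 of 3 mice, at 26.8, 128.5 and 70.2 CPM in HP and 34.5, 139.9 and 80.01 CPM in GHP, and that of 6 cholangiocyte markers was lower in 3 of 3, at 164.5, 18.6 and 26.6 CPM in HP and 152.8, 16.97 and 25.7 CPM in GHP. Within the stellate and fibroblast sum, Reln was higher in each mouse and made up 113.05 of the 128.5 CPM in HP of mouse 2. Col3a1 was also higher in each mouse, with a highest value of 3.27 CPM. Dcn was higher in mice 1 and 2 and lower in mouse 3, at 35.4 CPM in HP and 34.6 CPM in GHP. The other members, with a highest value of 1.96 CPM, were each lower in at least 1 mouse and higher in another. The cholangiocyte markers did not fall together. Spp1 was lower in each mouse and made up 151.3 of the 164.5 CPM in HP of mouse 1. Sox9 was 12.7, 8.38 and 11.4 CPM in HP and 11.6, 9.37 and 11.5 CPM in GHP, higher in mice 2 and 3. No other marker of this sum was above 1.42 CPM. Of these, Krt19 was lower in each mouse, Cftr was lower in mice 2 and 3, and Krt7 and Epcam were higher in each. The part of these marker shifts in the results was not tested. In these bulk samples, fewer cells of a type and less RNA per cell cannot be told apart.

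Human GCKR is not among the mouse transcripts, so the hP vector could not be measured. Mouse Gckr was 41.9, 118.7 and 62.1 CPM in HP and 45.9, 67.2 and 70.8 CPM in GHP. These levels overlapped (log2 fold change -0.30, SE 0.56, adjusted p 1.0), and no library of HP or GHP was above 118.7 CPM. In the group with the GK vector alone, mouse 3 had 844.5 CPM of Gckr against 54.4 and 69.5 CPM in mice 1 and 2, and these reads came from 1 of its cultures.

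With hP present no gene passed edgeR's quasi-likelihood test between GHP and HP. Of 12177 genes tested, 0 rose and 0 fell (0% called in each direction), a call needing an adjusted p under 0.05 and a fold of 1.3 or more for a rise and 0.7 or less for a fall. At an unadjusted p under 0.05, 147 genes were higher (1.21%) and 231 lower (1.9%) in GHP. DESeq2 with the same terms called 18 higher and 7 lower. Of these 25 genes, 23 had at least 1 of the 6 libraries under 0.05 CPM, 15 were annotated as pseudogenes and 24 had a fitted log2 change of 8.13 or more in size. In the edgeR fit, the GK vector without a GKRP vector raised 42 genes (0.345%) and lowered 2 (0.0164%). Each UN and GK sample sums both cultures of a mouse, against 1 culture in HP and GHP, so these counts differ in precision too. The number raised was 1 without the mouse term and 0 without mouse 2.

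The genes that the study's text names as raised by GK showed the contrast most plainly. These 17 genes were chosen by the study on libraries of this series, those with hP included, so they are no independent evidence of a direction. Without a GKRP vector all 17 were higher with GK, with a median log2 fold change of 1.33 (2.51-fold). Of these, 12 were called, beside 0.345% of all genes called as raised. With hP 15 of the 17 were higher, 0 were called, and the median was 0.25 (1.19-fold), beside a median of 0.00 over all genes tested. The median over the 17 genes was 0.16 in mouse 1, 0.35 in mouse 2 and 0.35 in mouse 3 with hP, against 1.14, 1.39 and 1.45 without. With a transcript length offset, 11 of the 17 were higher with hP and the median was 0.12. The groups GHP and HP did not overlap for 2 of the 17, Slc25a44 and Tkfc, both higher with GK, beside 2.24% of all genes that were higher without overlap. GK lay above UN without overlap for 16 of the 17, beside 3.02% of all genes. The study chose genes raised by GK by comparing GK alone with all endogenous-GK groups combined, UN and HP among them. It names some of the 17 as also lowered by GKRP in cells with the GK vector.

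None of the enzymes of fructose and glucose metabolism among the 17 passed the test between GHP and HP. Tkfc, which phosphorylates the glyceraldehyde of fructose metabolism, was 145.4, 143.3 and 149.9 CPM in HP and 168.4, 187.9 and 164.2 CPM in GHP. It was higher in all mice with hP, by 0.25 on the log2 scale (SE 0.14, unadjusted p 0.0991), against 1.23 without (adjusted p 0.000102). The value with hP turned to -0.087 under a transcript length offset. Pklr was 69.5, 33.9 and 52.3 CPM in HP and 68.1, 40.2 and 68.6 CPM in GHP, overlapping, with a log2 fold change of 0.19 (SE 0.15) against 1.00 (SE 0.14, adjusted p 0.00101) without. G6pc1, the catalytic subunit of glucose 6-phosphatase, was expressed at 0.310, 2.70 and 1.14 CPM in HP and 0.510, 3.39 and 2.36 CPM in GHP. Its log2 fold change of 0.63 (SE 0.56, 95% interval -0.53 to 1.79) was imprecise at these low levels, and without a GKRP vector it was 2.60 (SE 0.46, adjusted p 0.00677).

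Among transporters, Slc2a2, the glucose transporter GLUT2, was 7.60, 24.9 and 12.5 CPM in HP and 10.7, 31.7 and 17.1 CPM in GHP. It was higher in each mouse by a log2 fold change of 0.42 (SE 0.28), against 1.33 without a GKRP vector (SE 0.26, adjusted p 0.0158), and the value with hP turned to -0.11 under that offset. Slc25a44, a mitochondrial carrier of branched-chain amino acids, was 44.5, 48.1 and 47.0 CPM in HP and 52.8, 61.6 and 54.7 CPM in GHP. It was the only one of the 17 with an unadjusted p under 0.05 with hP (log2 fold change 0.27, SE 0.12, p 0.0307, adjusted p 1.0). Slc16a1, the lactate and pyruvate transporter MCT1, had the opposite sign with hP. It was 88.5, 105.1 and 92.3 CPM in HP and 75.4, 94.2 and 89.7 CPM in GHP, lower in 3 of 3 mice (log2 fold change -0.14, SE 0.07, 95% interval -0.29 to 0.00, adjusted p 1.0). Without a GKRP vector it was higher in 3 of 3 mice, at 80.1, 102.6 and 94.0 CPM in UN and 106.2, 126.2 and 136.3 CPM in GK (log2 fold change 0.42, SE 0.07, adjusted p 0.00433). The difference was -0.56 (SE 0.10, 95% interval -0.77 to -0.35, adjusted p 0.0514).

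Txnip, Rgs16, Klf10 and Angptl8 were not called with hP either. Txnip was 15.1, 17.3 and 22.1 CPM in HP of mice 1, 2 and 3 and 13.9, 42.2 and 46.2 CPM in GHP. It was lower in mouse 1 and higher in mice 2 and 3, with a log2 fold change of 0.74 (SE 0.30, unadjusted p 0.0230, adjusted p 1.0), and leaving out 1 mouse gave 0.46 (without mouse 2) to 1.18 (without mouse 1). Without a GKRP vector it was 2.09 (SE 0.29, adjusted p 0.000752). Rgs16, a regulator of G protein signalling, was 2.95, 3.83 and 1.62 CPM in HP and 5.44, 7.11 and 3.01 CPM in GHP. It was higher in each mouse by a log2 change of 0.79 to 0.85, yet the fitted value of 0.86 (SE 0.45) had a 95% interval from -0.06 to 1.79. Klf10, a Kruppel-like transcription factor, was 13.0, 10.4 and 15.9 CPM in HP and 15.1, 16.2 and 19.8 CPM in GHP (log2 fold change 0.38, SE 0.24), against 1.80 (SE 0.22, adjusted p 0.000121) without. Angptl8, a secreted inhibitor of lipoprotein lipase, was 5.43, 4.12 and 5.20 CPM in HP and 5.10, 9.53 and 8.51 CPM in GHP (log2 fold change 0.66, SE 0.43), against 2.09 (SE 0.37, adjusted p 0.00677) without. Its value with hP was 0.38 without mouse 2 and 0.95 without mouse 1, and that of Klf10 was 1.12 with a transcript length offset.

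Other members of the 17 did not pass the test with hP either. The log2 fold change was 0.29 (SE 0.26) for the mitochondrial carrier Slc25a47, 0.26 (SE 0.36) for the arrestin-fold protein Arrdc4, 0.21 (SE 0.35) for the homeobox gene Lhx6, 0.12 (SE 0.14) for the ubiquitin ligase Rnf144b, 0.05 (SE 0.43) for the anion transporter Slc17a4 and -0.48 (SE 0.46) for the channel gene Hcn3. Hcn3 and Slc16a1 were the 2 of the 17 below 0. Without a GKRP vector the same 6 genes had values between 0.61 for Rnf144b and 1.56 for Slc25a47.

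**Figure D1:**
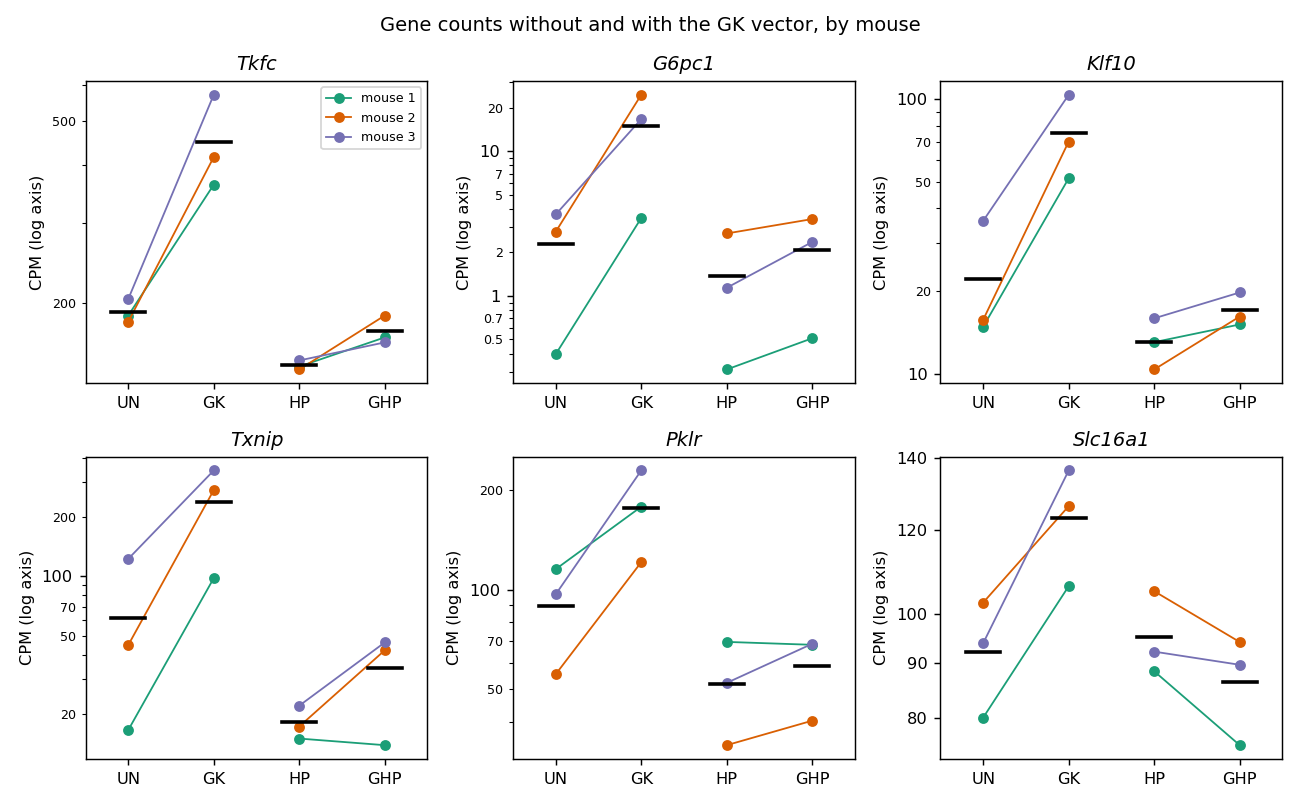
Level of 6 genes in CPM (log axis) in UN, GK, HP and GHP, with a point for each mouse, lines joining the cultures of a mouse and black bars for the means of 3 mice. Klf10 is higher in GK than in UN in each mouse, with a mean of 75.1 CPM in GK against 17.02 CPM in GHP. Slc16a1 is higher in GK than in UN and lower in GHP than in HP.

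The starting level differed too. For 16 of the 17 genes the mean in HP was below that in UN, and for 15 of the 17 the mean in GHP, with the GK vector, was still below the mean in UN. Klf10, for example, was 13.1 ± 2.78 CPM in HP, 17.02 ± 2.44 in GHP, 22.2 ± 12.0 in UN and 75.1 ± 26.5 in GK (SD, n = 3 each). These levels were not tested between HP and UN here, and the share of all genes with a lower mean in HP is not given. UN carried no vector, so hP and the added virus cannot be told apart between HP and UN.

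**Figure D2:**
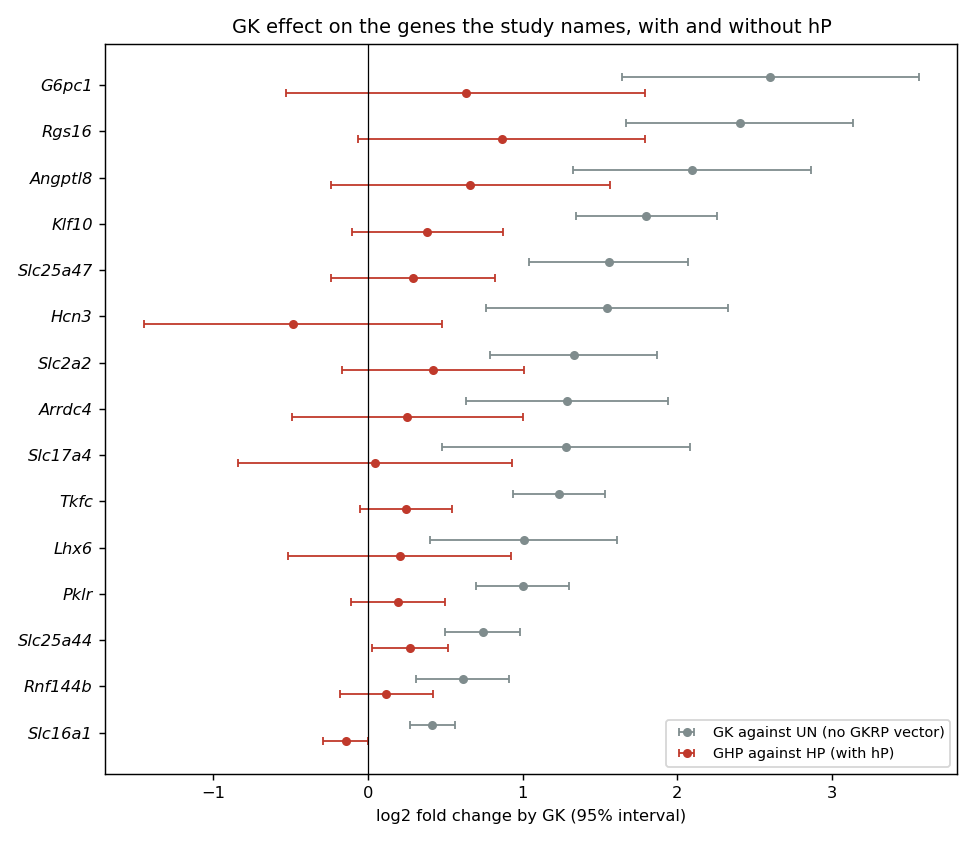
Log2 fold change by GK (x axis) with its 95% interval for 15 of the 17 genes that the study names as raised by GK (y axis), with hP (GHP against HP) and without a GKRP vector (GK against UN). With hP the estimates run from -0.48 to 0.86 and the intervals of all but Slc25a44 span 0.

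The difference between the GK effects was tested in the same model. Of 12177 genes, 1 passed (0.00821%), the ferritin pseudogene Ftl2-ps, whose reads are listed at 617.4 CPM in GHP of mouse 1 and at 0 in GHP of mice 2 and 3. In HP it was at 0, 0 and 0.163 CPM and in UN at 363.8, 138.0 and 42.9 CPM, so it was high in 1 GHP library and in all UN samples. This gene shares sequence with ferritin light chain copies, its assignment is uncertain, and without mouse 1 its difference was not called (adjusted p 1.0). At an unadjusted p under 0.05, 305 genes had a smaller GK effect with hP (2.5%) and 208 a larger one (1.71%). The 17 genes had a smaller effect with hP in 17 of 17, by 0.47 to 2.03 on the log2 scale, and 16 of them had an unadjusted p under 0.05. Since they were chosen for their rise in these libraries, and some also as lowered by GKRP, this count supports nothing beyond the values.

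Below Ftl2-ps, low adjusted p-values were those of Slc16a1 and Ddhd2 at 0.0514 each, Ulk1 at 0.0655 and Tkfc at 0.149. Ddhd2, a lipase, and Ulk1, a kinase that starts autophagy, were singled out after their values were seen. Ddhd2 was 20.0, 25.99 and 25.7 CPM in HP and 20.9, 27.8 and 29.3 CPM in GHP, against 18.8, 27.7 and 35.7 CPM in UN and 34.9, 52.8 and 69.1 CPM in GK. Ulk1 was 16.9, 50.8 and 32.5 CPM in HP and 18.9, 67.1 and 40.7 CPM in GHP, against 20.9, 65.9 and 46.3 CPM in UN and 55.3, 135.5 and 114.6 CPM in GK. The GK effect was smaller with hP by 0.81 (SE 0.14) for Ddhd2 and by 0.95 (SE 0.18) for Ulk1 on the log2 scale, the latter reversed with a transcript length offset (1.61, SE 0.80). With that offset the Ddhd2 difference was -0.49 (SE 0.34, 95% interval -1.19 to 0.21). With each culture as a sample 6 genes passed, among them Slc16a1, Tkfc, Ddhd2, Ulk1 and Sgpp1, all with a smaller effect with hP. That setting counts both cultures of a mouse in UN and in GK as separate samples, which overstates the replication. The adjusted p of Slc16a1 over the settings ran from 0.000242 with DESeq2 to 1.0 without mouse 2. In edgeR it was above 0.05 whichever mouse was left out, and was 0.564 without mouse 1.

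Of the 42 genes raised by GK without a GKRP vector, 41 were then followed in GHP and HP, which are other cultures of the same mice. In GHP, 34 of the 41 were higher than in HP (82.9%), beside 50.5% of all genes, and their median log2 fold change was 0.17 (1.12-fold) beside 0.00. Of the 41, 23 were higher in 3 of 3 mice (56.1%), beside 12.7% of all genes. With a transcript length offset, 29 of the 41 were higher and the median was 0.21. In GHP against HP, 3 of the 41 had an unadjusted p under 0.05 in that direction, Txnip, Ulk1 and Slc25a44, and 0 were called. The values ran from -0.14 for Slc16a1 to 0.86 for Rgs16. The median log2 fold change without a GKRP vector was 0.93 (1.90-fold), the value on which these genes were chosen.

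**Figure D3:**
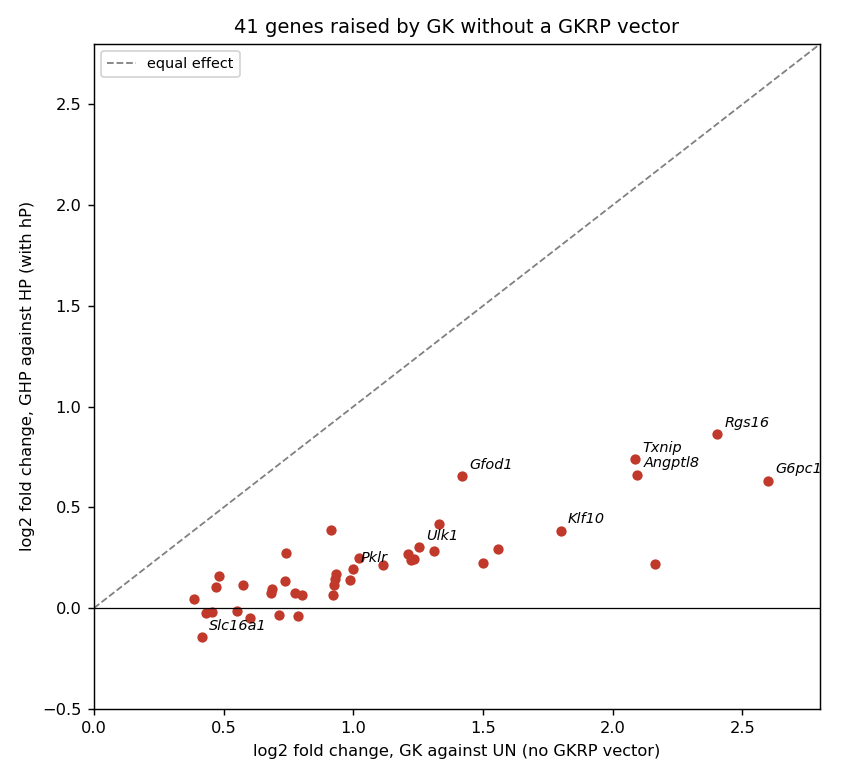
Log2 fold change by GK with hP (y axis) against that without a GKRP vector (x axis) for 41 genes that GK raised without a GKRP vector, which fixes the x values, with the dashed line marking equal effects. The 41 genes lie below the line, between -0.14 and 0.86 with hP.

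By pathway, the ChREBP list had the highest positive median with hP among the lists of 6 or more tested genes, other than the study's own genes. Of its 22 tested genes, 20 were higher with GK in the presence of hP (median log2 fold change 0.22), 0 were called and 1, Txnip, had an unadjusted p under 0.05. Without a GKRP vector 19 were higher and 15 were called, beside 0.345% of all genes called as raised, and the median was 1.06. With a transcript length offset 16 of the 22 were higher with hP and the median was 0.25. The list shares 9 genes with the study's 17.

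Over all genes, 0.345% were called as raised without a GKRP vector. For glycolysis, 16 of 23 tested genes were higher with hP (median 0.06) against 21 of 23 without (median 0.29, 5 called). For fatty acid and triglyceride synthesis 15 of 23 were higher (median 0.05) against 18 of 23 (median 0.19, 4 called). Acaca, acetyl-CoA carboxylase, was 69.2, 73.1 and 85.0 CPM in HP and 90.1, 88.1 and 89.8 CPM in GHP, without overlap, yet its log2 fold change of 0.25 (SE 0.19, unadjusted p 0.203) did not pass the test, against 1.02 (adjusted p 0.0107) without a GKRP vector. For gluconeogenesis and glycogen 11 of 18 were higher (median 0.03) against 14 of 18 (median 0.19, 3 called). Pygl, liver glycogen phosphorylase, was higher in each mouse, at 99.2, 229.5 and 179.2 CPM in HP and 112.1, 248.7 and 203.6 CPM in GHP (log2 fold change 0.16, SE 0.09), against 0.48 without (adjusted p 0.0116). Fructose metabolism with the pentose phosphate pathway had 8 of 13 higher (median 0.06) against 12 of 13 (median 0.15, 2 called).

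Lipoprotein and lipase genes were higher with hP in 16 of 18 (median 0.09) and without it in 12 of 18 (median 0.10). With hP 0 were called and without it 1, beside 0.345% of all genes called as raised without it. The cholesterol synthesis list had a median of 0.02 with hP (15 of 26 higher) and -0.04 without (8 of 26 higher). Hmgcs1, an enzyme of the mevalonate pathway, was lower in each mouse, at 222.2, 249.95 and 277.6 CPM in HP and 199.1, 231.2 and 227.4 CPM in GHP (log2 fold change -0.18, SE 0.09, unadjusted p 0.0416, adjusted p 1.0). Genes of cholesterol efflux and bile acids had a median of -0.01, fatty acid oxidation and ketogenesis -0.04, mitochondrial carriers 0.03, and insulin and FOXO responsive genes 0.11. Ppargc1a, a coactivator of gluconeogenic and mitochondrial genes, was 2.02, 3.41 and 1.62 CPM in HP and 1.70, 1.13 and 1.18 CPM in GHP (log2 fold change -0.80, SE 0.38, unadjusted p 0.0439), a low level at which a few reads decide the value.

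The interferon and virus response list was the only one of the remainder with a median beyond 0.2 in size over more than 6 tested genes. Of 24 tested genes 21 were lower with GK in the presence of hP (median -0.22) and 21 were lower without it (median -0.20), with 0 called in either. With hP the median was 0.04 in mouse 1, -0.32 in mouse 2 and -0.28 in mouse 3, and without a GKRP vector it was 0.03, -0.12 and -0.43. Without mouse 2 the fitted median with hP was -0.13, and without mouse 3 that without a GKRP vector was -0.06, with 15 of the 24 lower. With a transcript length offset 15 of the 24 were lower with hP. Isg15, a ubiquitin-like interferon-induced protein, was 64.9, 29.5 and 42.9 CPM in HP and 68.8, 13.4 and 31.7 CPM in GHP, lower in mice 2 and 3 (log2 fold change -0.49, SE 0.21, unadjusted p 0.0320). Gbp2, an interferon-induced GTPase, was 63.3, 23.6 and 75.2 CPM in HP and 57.4, 16.97 and 59.5 CPM in GHP, lower in each mouse (log2 fold change -0.32, SE 0.15, unadjusted p 0.0493). Both had an adjusted p of 1.0.

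Other lists lay near 0 with hP. The median was -0.02 for 47 genes of DNA replication and S phase, 0.05 for 18 p53 targets, 0.00 for 13 NF-kB genes and chemokines, -0.01 for 20 acute phase proteins, -0.05 for 23 genes of the unfolded protein response and ATF4, 0.01 for 19 immediate early genes, 0.03 for 18 circadian clock genes, -0.02 for 23 genes of cytochrome P450 and detoxification, and 0.00 for 22 hepatocyte identity genes. In the stress list, Ddit3 (CHOP), a transcription factor of the unfolded protein response, was 9.47, 8.10 and 8.93 CPM in HP and 6.63, 7.27 and 6.29 CPM in GHP, below HP without overlap (log2 fold change -0.40, SE 0.18, unadjusted p 0.0422). Such non-overlap was seen for 2.47% of all genes. Dnajb9, a chaperone of the endoplasmic reticulum, was lower in each mouse (-0.29, SE 0.12, unadjusted p 0.0306). Nr1i2, the xenobiotic receptor PXR, was 18.001, 16.8 and 13.8 CPM in HP and 25.5, 18.7 and 19.0 CPM in GHP (log2 fold change 0.38, SE 0.16, unadjusted p 0.0229). All 3 had an adjusted p of 1.0. The medians were 0.06 for the macrophage, -0.01 for the endothelial, 0.27 for the stellate and fibroblast (5 tested), -0.10 for the cholangiocyte markers (2 tested) and 0.28 for G2 and mitosis (5 tested).

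The genes of lowest p in the other lists gave the following log2 fold changes with hP, all with an adjusted p of 1.0. In the replication list E2f2, a cell cycle transcription factor, had -1.28 (SE 0.45), with 2.33, 0.710 and 2.92 CPM in HP and 0.340, 0.808 and 1.18 CPM in GHP, while Tyms, thymidylate synthase, had 0.35 (SE 0.15). The mitotic genes Cdk1 and Tpx2 had opposite signs, 0.59 (SE 0.42) and -1.19 (SE 0.44). Both lie at low levels in these cells. Relb, an NF-kB subunit, was 2.79, 3.12 and 14.5 CPM in HP and 1.36, 1.94 and 0.917 CPM in GHP, with the largest gap in mouse 3 (-1.98, SE 0.79, unadjusted p 0.0204), while the inhibitor Nfkbia had 0.19 (SE 0.14).

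In lipid handling, the cholesterol exporter Abcg1 had -0.59 (SE 0.24), the sterol receptor Nr1h3 (LXR alpha) 0.24 (SE 0.12), the sterol carrier Stard4 -0.21 (SE 0.11), the lipoprotein assembly factor Tm6sf2 0.51 (SE 0.29) and the acetyl-CoA synthetase Acss2 0.22 (SE 0.14). In fuel oxidation, Pdk4, which inhibits pyruvate dehydrogenase, had -0.37 (SE 0.18). The carrier Slc25a33 had -0.34 (SE 0.20), the pentose phosphate epimerase Rpe -0.26 (SE 0.13) and Hkdc1, a hexokinase-like protein, 0.68 (SE 0.51).

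Genes of liver identity and of the clock had small values. Trf had 0.13 (SE 0.09), Cyp2c29 -0.19 (SE 0.09), Crp -0.12 (SE 0.09), Fgg -0.15 (SE 0.12), Bmal1 -0.28 (SE 0.18) and Cry2 0.19 (SE 0.11). The p53 targets Mdm2 and Sesn1 had -0.13 (SE 0.08) and 0.23 (SE 0.24), and the immediate early genes Nr4a1 and Ier5 had 0.29 (SE 0.29) and -0.18 (SE 0.15). Among markers of other cell types, Adgre1 had 0.32 (SE 0.24), Cd68 0.14 (SE 0.09), Clec4g -0.51 (SE 0.51), Stab2 0.16 (SE 0.17), Col3a1 0.50 (SE 0.34), Reln 0.27 (SE 0.20), Spp1 -0.21 (SE 0.18) and Sox9 0.01 (SE 0.23).

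**Figure D4:**
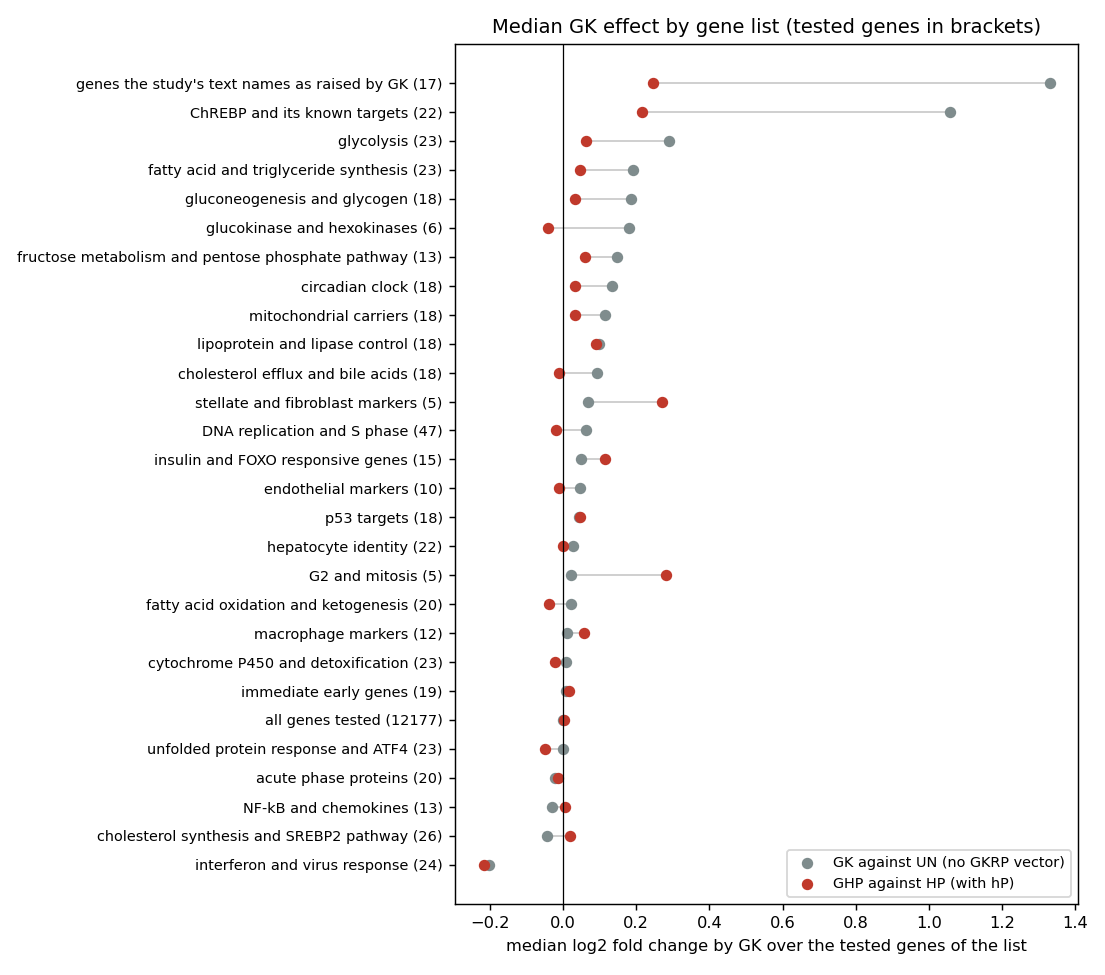
Median log2 fold change by GK (x axis) over the tested genes of each list (y axis, number of tested genes in brackets) with hP and without a GKRP vector, for lists with at least 5 tested genes and for all genes. With hP the medians of the study's genes and of the ChREBP list are 0.25 and 0.22, against 1.33 and 1.06 without, while both medians of the interferon list lie near -0.2.

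Genes of low unadjusted p with hP formed no list and all had an adjusted p of 1.0. Higher with GK were Zfp688, a zinc finger protein (log2 fold change 1.36, SE 0.31), Coq4, of coenzyme Q synthesis (0.59, SE 0.15), and Lhpp, a phosphatase (0.41, SE 0.11). Coq4 was 6.36, 5.25 and 5.04 CPM in HP and 9.35, 7.59 and 8.12 CPM in GHP, without overlap. Lower with GK were Syap1 (-0.41, SE 0.10), the gap junction protein Gja1 (-0.82, SE 0.20), the acetyltransferase Naa30 (-0.42, SE 0.10), Mitd1 (-0.68, SE 0.18) and the deubiquitinase Otud1 (-0.40, SE 0.11). Syap1 was 42.5, 41.2 and 42.9 CPM in HP and 34.7, 32.0 and 28.7 CPM in GHP, and Gja1 was 6.05, 4.83 and 8.12 CPM in HP and 3.91, 2.26 and 4.71 CPM in GHP. Neither overlapped between the groups.

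The GK effect with hP was not distinguished from that with human GKRP-446L (hL) or mouse GKRP-446P (mP) for any gene tested by edgeR. Mouse GKRP-446L, also in the series, was not compared here. The difference from the GK effect with hL was called for 0 of 12177 genes (0%) and that from mP for 0 (0%), and at an unadjusted p under 0.05 there were 469 (3.85%) and 799 genes (6.56%). DESeq2 called 16 and 21. The median log2 fold change by GK over the study's 17 genes was 0.25 with hP, 0.53 with hL and 0.12 with mP. Klf10, for example, had a log2 fold change of 0.38 with hP, 0.79 with hL and 0.49 with mP, and Txnip of 0.74, 1.54 and 0.63. Each of these has 3 mice a group, and a p that misses the threshold does not show that the vectors act alike.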

How the data were processed

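RNA from 36 hepatocyte cultures was sequenced. Per the labels and file headers, the authors ran Salmon 1.4.0 on mouse Gencode transcripts (GRCm39) and deposited, for each transcript, an expected count (estimated reads, not normalized), TPM and an effective length, which was used only as an offset. TPM values were deposited by the authors and were not tested. Expected counts were summed to 52230 genes with a later Gencode release (98.8% of transcripts matched, and 0.392% to 0.639% of reads did not) and rounded. Both cultures of a mouse in UN and in GK were summed, giving 30 samples.

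edgeR 4.0.16 in R 4.3.3 (filterByExpr, TMM, quasi-likelihood F test, Benjamini-Hochberg) was fitted to all 30 samples with condition and mouse as terms, since the labels tie the cultures to animals. HP and GHP deviations correlated at 0.206, 0.284 and 0.088 within mice and at -0.343 to 0.137 between different mice. The unblocked model was an alternative. Fitted standard errors are the fold change over the square root of F. The test between GHP and HP was checked on simulated data, where it called 0 genes with no change planted. It recovered 19% of 200 planted 1.5-fold changes and 69.5% of 2-fold ones, with 2 and 11 false calls. Thus 0 calls do not show that smaller changes were absent. Labels name separate animals. With mouse as a term, p-values rest on the spread left after the level of each mouse is removed. This spread was pooled over all 30 samples (18 residual degrees of freedom).

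The members and gene lists were chosen with earlier results of these data known. The text names Gckr, the study's genes, the genes of lowest p, and up to 2 genes a list. A few genes that this rule names, with 1 of the 42 genes raised by GK, are not reported here, though counts and medians include them. Depth was 3924674 to 10046158 reads per library.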

Additional observations from a re-analysis of the deposited data

Results flagged for a closer look

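In the main fit, Ftl2-ps was the only gene called for a difference of the GK effect with hP from that without a GKRP vector. Its adjusted p was 0.0158 in edgeR's quasi-likelihood test. For other genes, a missed threshold does not show an equal effect. Ftl2-ps was listed at 617.4 CPM in GHP of mouse 1 and at 0 in GHP of mice 2 and 3. No fold change is given because most libraries are at 0.

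In the group with the GK vector alone, replicate 5, a culture of mouse 3, held 1425 CPM of mouse Gckr before TMM scaling, far from the other 5 cultures (53.9 to 96.1 CPM). Chance flags about 1 in 20 groups, a rate that says nothing of the size of this gap. The source of these reads was not tested. The comparison of GHP with HP does not use this culture. Without it, a setting chosen after seeing the data, the GK vector alone raised 40 genes and lowered 1, and the median over the study's 17 genes was 1.39 without a GKRP vector.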

How the results depend on the processing

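The count of genes called between GHP and HP was 0 in each direction under all settings except 3. It was 18 raised and 7 lowered with DESeq2, and 1 raised with no low-count filter and with each culture a sample. The last setting counts both cultures of a mouse in UN and in GK separately, which overstates the replication. For GK without a GKRP vector the numbers raised and lowered were 1 and 0 with no replicate block (no mouse term), 79 and 27 with DESeq2, 39 and 7 with no low-count filter, 50 and 1 with the stricter low-count filter, 103 and 8 with each culture a sample, 25 and 20 with only the conditions compared, and 2 and 0 with the transcript length offset. Leaving out 1 mouse or culture gave 0 to 40 raised (0 without mouse 2, 8 without mouse 3) and 0 to 4 lowered. The pairing by mouse thus moved these counts, while GHP against HP had 0 calls with and without it.

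Genes with a smaller effect with hP than without a GKRP vector numbered 0, and 13 with DESeq2, 1 with no low-count filter and 6 with each culture a sample. Leaving out 1 mouse gave 0 to 1 (1 without mouse 3). Genes with a larger effect numbered 1, and 22 with DESeq2, 2 with no low-count filter, and 0 with no replicate block, the stricter low-count filter, each culture a sample and the transcript length offset. Leaving out 1 mouse or culture gave 0 to 1. Differences from hL and mP numbered 16 and 21 with DESeq2, and leaving out 1 mouse gave 0 to 1 for mP. The cause of these shifts was not tested.

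Of the 68 named genes, 51 kept the sign of the log2 fold change with hP in each of the 12 settings that tested them, and for 35 the value moved by over 1.5 times when 1 mouse or culture was left out. With the transcript length offset it turned for Acss2 (-0.17), Adgre1 (-0.21), Arrdc4 (-0.45), E2f2 (0.40), Mdm2 (0.22), Nr1h3 (-0.04), Slc17a4 (-0.40), Slc2a2 (-0.11), Sox9 (-0.007), Stab2 (-0.30), Tkfc (-0.087) and Tpx2 (0.076). Leaving out 1 mouse gave -0.034 to 0.444 for Arrdc4, -0.46 to 0.16 for Gckr, -1.133 to 0.041 for Hcn3, -0.17 to 0.63 for Lhx6, -0.017 to 0.474 for Sesn1, -0.11 to 0.15 for Slc17a4 and -0.06 to 0.087 for Sox9. For Ftl2-ps, at 0 in most libraries, the fitted value ran from -2.364 to 13.255. Precision is limited by 3 mice a group and by counts of a few reads for the lowest genes.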
